A study of Fagopyrum tataricum with 12 samples.

Results

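Gene expression between 4 h and 8 h of osmotic stress was compared directly in the cultivar Dingku1 of Tartary buckwheat (Fagopyrum tataricum), a pseudocereal known for its flavonol glycosides. The comparison used 6 of the 12 RNA-seq libraries of the series, chosen by their labels alone: 3 from seedlings kept for 4 h and 3 from seedlings kept for 8 h in 20% PEG-6000, a polymer too large to enter cells that lowers the water potential of the root medium. All genes were tested, and the other 6 libraries (3 controls at 0 h in Hoagland's nutrient solution and 3 after 2 h in 20% PEG-6000) gave the levels before 4 h and part of the estimate of the spread. Every library was made from leaf and stem of seedlings at the 2-leaf stage. The labels' protocol gives PEG to hydroponic seedlings and also mentions plants in soil under water shortage, and all 12 libraries are read as hydroponic from the hours in their titles. The study is titled for flavonoid synthesis and its MYB regulators in drought, and the step from 4 to 8 h asks which genes were still moving, and which had turned back, late in this time course.

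Water deficit raises the hormone abscisic acid (ABA), which binds PYL receptors, so that PP2C phosphatases are inhibited and SnRK2 kinases are released to phosphorylate transcription factors and ion channels. Downstream genes make protective proteins of the late embryogenesis abundant class, enzymes of raffinose and proline metabolism, and antioxidants, while photosynthesis and growth genes are commonly turned down. Flavonols such as quercetin, whose rutinoside rutin accumulates in this species, derive from phenylalanine through the phenylpropanoid entry steps, chalcone synthase and flavonol synthase, and R2R3-MYB factors related to Arabidopsis MYB12 activate several of these genes.

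The 6 libraries held 30468104 to 36709736 counted reads each, and 22063 of 26750 genes were tested (4687 had too few counts). Levels are read counts scaled to library size (CPM) with TMM factors, given for each library or as mean ± SD (n = 3 libraries), and log2 changes are 8 h over 4 h with their standard errors. Changes are called higher or lower at a false discovery rate of 0.05 in the edgeR quasi-likelihood test. The common dispersion amounted to a biological variation of 4.90%, and Spearman correlations of 0.9966 to 0.9970 between libraries of the same time compared with 0.947 to 0.9484 between libraries of different times. Separate plants for the libraries of a group are not stated in the labels, so p-values reflect only the spread among these libraries, and that spread may be technical. The series has no untreated library at 4 or 8 h, so that hours in PEG and time of day cannot be told apart, and in whole tissue fewer cells of a type cannot be told apart from less RNA per cell. As a check of the labelled tissue, 22 of 22 nuclear genes used as markers of green tissue were detected, at a summed 29920 to 30090 CPM at 4 h and 8067 to 8550 CPM at 8 h, while 12 of 27 root marker genes passed the low-count filter, at 239.6 to 248.2 and 232.3 to 242.1 CPM.

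Most genes differed between the 2 times. Of 22063 genes, 14445 (65.5%) were called, 7452 (33.8%) higher at 8 h and 6993 (31.7%) lower. These percentages are the background against which the counts of each gene list stand. A change of at least 2-fold was found for 3881 genes (17.6%), of which 1681 (7.62%) were higher and 2200 (9.97%) lower. The extremes were less even, with 121 genes at least 8-fold higher and 395 at least 8-fold lower. The median log2 change of all tested genes was 0.04 (quartiles -0.35 and 0.41).

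The scaling moved this centre. TMM factors were 0.936 to 0.941 at 4 h and 1.08 to 1.1 at 8 h, and with library size alone the median of all genes was 0.26, an upward shift of 0.22. By that scaling 11352 genes were higher and 4711 lower, so 70.7% of calls were higher against 51.6% with TMM. Of the calls made with TMM, 12163 were shared in the same direction and 93 reversed. Gene lists are therefore described by their position relative to the median of all genes. Library size alone moved all lists by nearly the same amount, so that 0 of 70 lists changed side of that median is no support for their positions. Under at least 1 of the other alternatives 23 lists changed side. Where the median of a list was on the other side of 0 by library size alone, that value is given beside it, and where its share of higher calls moved by over 10 percentage points or its balance turned, so are its counts.

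**Figure D1:**
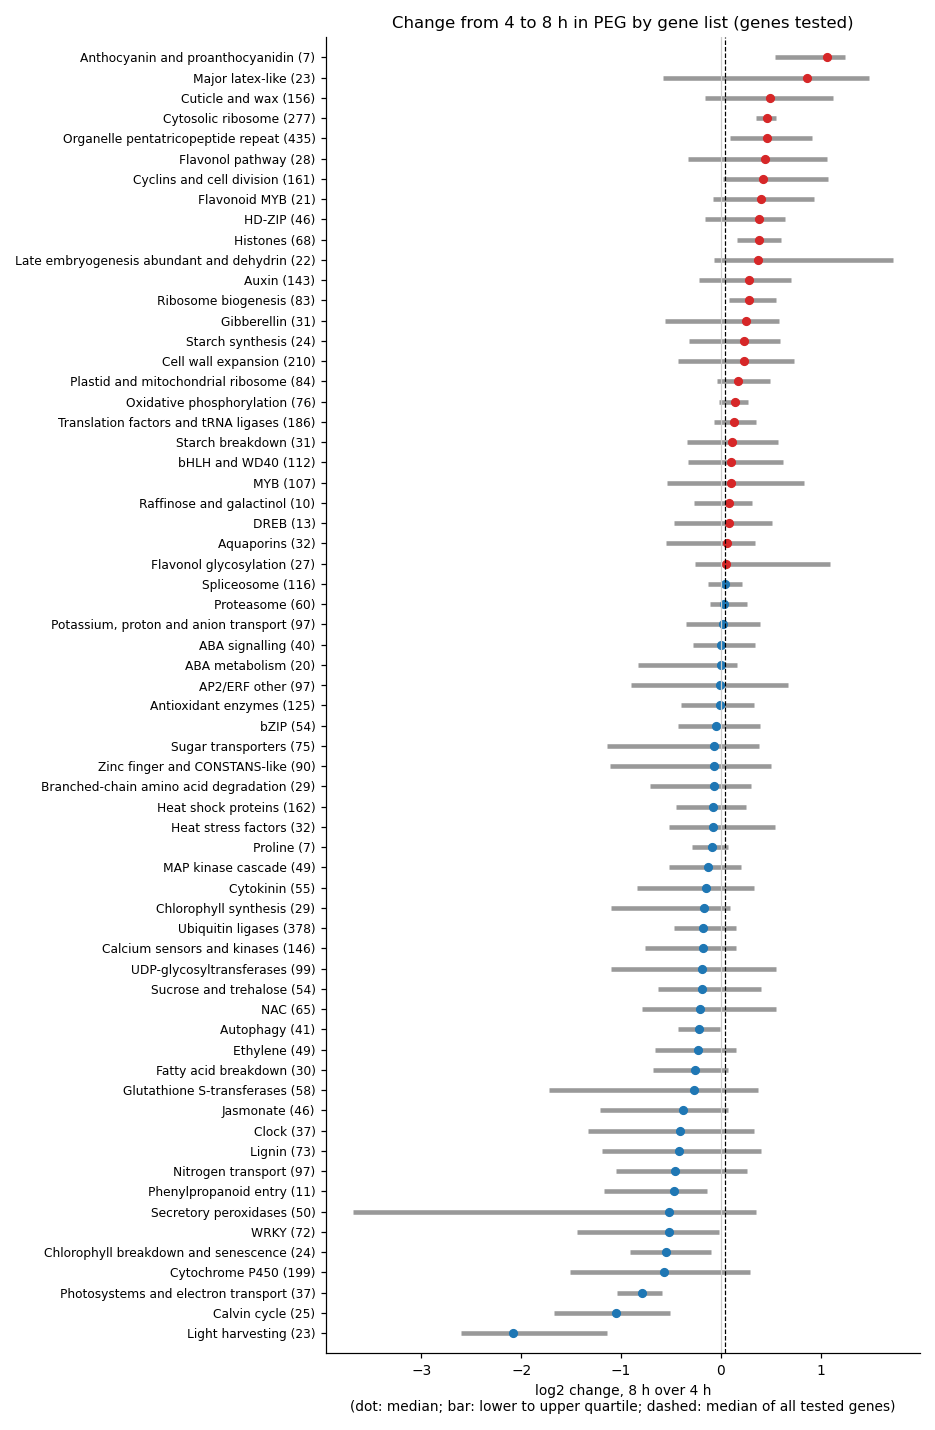
Median (dot) and quartiles (bar) of the log2 change from 4 to 8 h in PEG for each gene list other than the tissue markers, with the number of genes tested in parentheses; red and blue dots lie above and below the median of all tested genes (dashed line, 0.04). Light harvesting, Calvin cycle and photosystem genes lie lowest, and anthocyanin and proanthocyanidin, latex-like protein and cuticle genes lie highest.

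The 12 genes with the largest falls from 4 to 8 h, picked by that change, had their highest means at 4 h. TL1 (evm.TU.Ft3.106), for a thaumatin-like protein of the pathogenesis-related class, was at 2391, 2684 and 2576 CPM at 4 h and 15.6, 15.8 and 15.4 CPM at 8 h. The log2 change was -7.35 (SE 0.0526, edgeR adjusted p = 1.88e-47). Its mean had been 22.4 CPM in the control and 568 CPM at 2 h, so the 8 h level stood below that of the controls. A pair of proteinase inhibitor genes, whose products block digestive proteases of insects and microbes, followed the same course. evm.TU.Ft3.5044 was at 529, 584 and 548 CPM at 4 h and 2.39, 2.41 and 2.11 CPM at 8 h, a log2 change of -7.91. The log2 change of evm.TU.Ft3.5046 was -8.17, from 234 ± 20.2 to 0.814 ± 0.114 CPM. Their control means were 7.35 and 2.74 CPM, above the 8 h level in both.

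The other genes among the 12 largest falls (with groups that do not overlap and 10 CPM or more on average in these 6 libraries) ranged from log2 -9.19 to -6.18. Groups without overlap were part of how the 12 falls and the 12 rises were picked, so nothing is read from that separation. So was the mean of 10 CPM, which a gene low at 8 h could reach only through its 4 h libraries, and the reverse. High levels at 4 h in the falls and at 8 h in the rises therefore follow in part from the pick. Over all genes, the 3 libraries of 8 h lay wholly above those of 4 h in 35.6% and wholly below in 33%. LPPE2 (evm.TU.Ft2.4828), for a chloroplast lipid phosphate phosphatase that makes diacylglycerol, had 99.7, 103 and 105 CPM at 4 h and 0.234, 0.18 and 0.104 CPM at 8 h, and a second gene of that name (evm.TU.Ft2.4829) went from 37.3 ± 0.982 to 0.17 ± 0.078 CPM. Both genes were below 1 CPM in every 8 h library. BGLU12 (evm.TU.Ft3.2514), a beta-glucosidase, went from 421 ± 15.3 to 2.93 ± 0.432 CPM, and the berberine bridge enzyme-like gene evm.TU.Ft3.2126, a flavin-linked oxidase, from 280.4 ± 7.68 to 3.02 ± 0.819 CPM. MTL2 (evm.TU.Ft8.1886), annotated as a methyltransferase of the caffeine synthase family, fell from 604 ± 15 to 8.3 ± 0.134 CPM. ALDH2C4 (evm.TU.Ft3.1658), which in Arabidopsis oxidises coniferaldehyde and sinapaldehyde to ferulic and sinapic acid, fell 72.7-fold, from 162 ± 5.65 to 2.23 ± 0.219 CPM. The remaining falls were GULLO6 (evm.TU.Ft2.4941, a gulonolactone oxidase, 41.9 to 0.195 CPM), the efflux carrier DTX18 (evm.TU.Ft2.3396, 23.4 to 0.176 CPM) and a class III peroxidase (evm.TU.Ft3.3739, 59.97 to 0.48 CPM). Over the 12 genes the median of the group means was 1.19 CPM at 0 h, 17.1 CPM at 2 h, 198 CPM at 4 h and 1.52 CPM at 8 h. Against the control, 4 of the 12 were lower at 8 h, 2 higher and 6 not called, where 34.5% of all tested genes were lower and 36.4% higher. These counts reuse the 8 h libraries of the pick, so nothing is read from them.

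**Figure D2:**
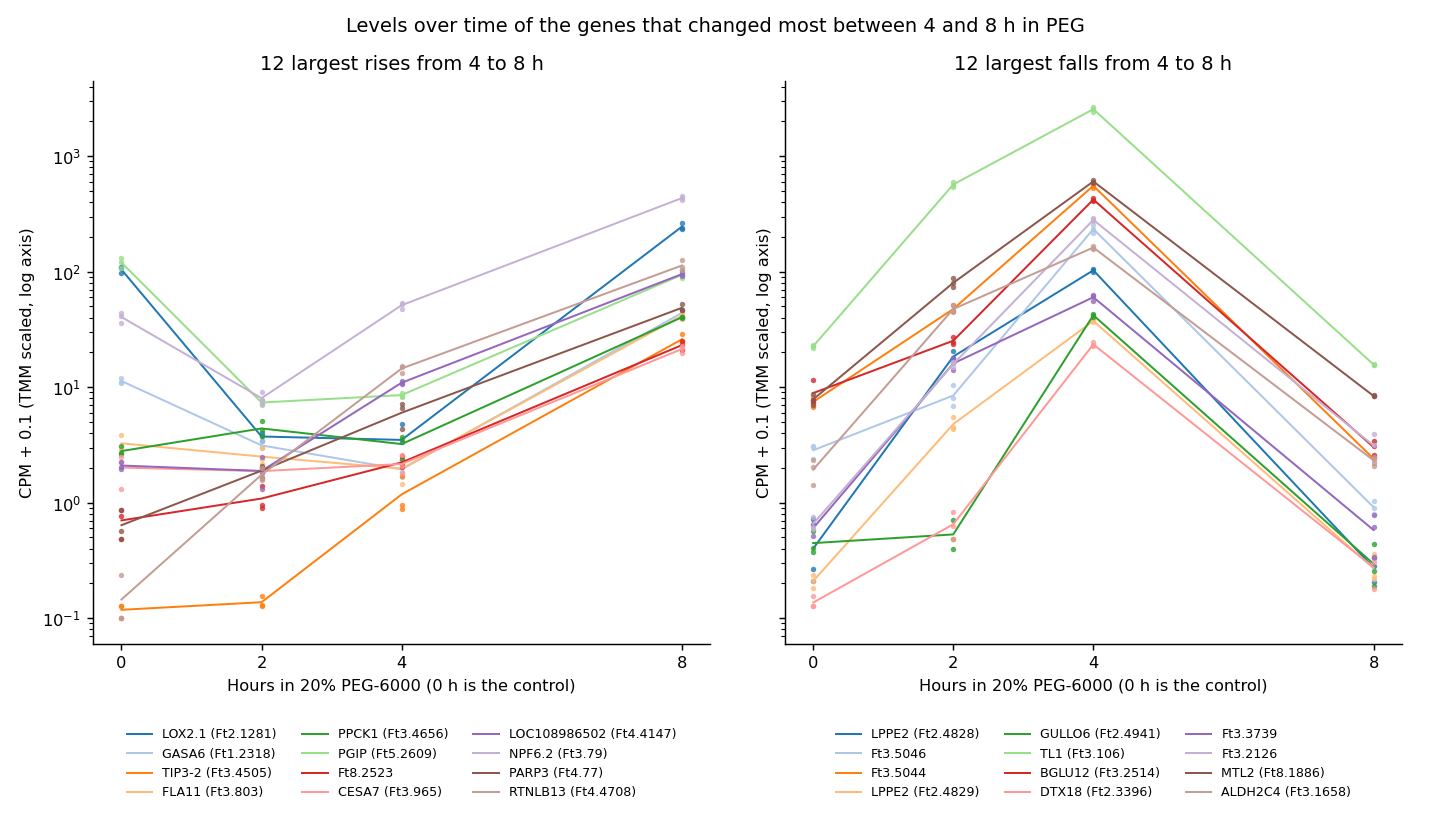
CPM plus 0.1 on a log axis against hours in PEG (0 h is the control) for the 12 largest rises (left) and falls (right) between 4 and 8 h; points are the libraries and lines join the means of 3. All 12 falling genes have their highest mean at 4 h, while the rising genes include LOX2.1 and PGIP, whose control means of 104 and 119.8 CPM were far above their 4 h means. The genes were picked by their change between 4 and 8 h, which favours high 4 h levels in the falls and low ones in the rises.

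Among the 12 largest rises, 11 genes were higher at 8 h than in the control and 1 was lower. These counts reuse the 8 h libraries by which the genes were picked, so nothing is read from them. LOX2.1 (evm.TU.Ft2.1281), a chloroplast 13-lipoxygenase that begins jasmonate synthesis, was at 2.24, 3.23 and 4.71 CPM at 4 h and 233, 265 and 237 CPM at 8 h. The log2 change was 6.18 (SE 0.0926, edgeR adjusted p = 2.76e-37), after means of 104 CPM in the control and 3.64 CPM at 2 h. PGIP (evm.TU.Ft5.2609), an inhibitor of fungal polygalacturonases, had the same low phase: 119.8 CPM in the control, 7.26 CPM at 2 h, then 8.85, 8.17 and 8.3 CPM at 4 h and 102, 88.3 and 90.8 CPM at 8 h. These genes were therefore low at 2 and 4 h and high at both ends of the series.

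Over the 12 rises the 4 h means ranged from 1.08 to 51.1 CPM, and low 4 h levels follow in part from how these genes were picked. NPF6.2 (evm.TU.Ft3.79), of the nitrate and peptide transporter family, went from 53.2, 47.6 and 52.5 CPM at 4 h to 453, 433 and 414 CPM at 8 h (log2 3.08 (SE 0.0555, edgeR adjusted p = 1.05e-34)). RTNLB13 (evm.TU.Ft4.4708), a reticulon that shapes the endoplasmic reticulum, went from 14.4 ± 1.09 to 113 ± 11.3 CPM, and PARP3 (evm.TU.Ft4.77), an ADP-ribosyltransferase, from 5.91 ± 1.44 to 48.5 ± 3.28 CPM. GASA6 (evm.TU.Ft1.2318), a small gibberellin-regulated peptide, went from 1.84 ± 0.34 to 43.8 ± 3.66 CPM, and PPCK1 (evm.TU.Ft3.4656), the kinase that activates phosphoenolpyruvate carboxylase, from 3.12 ± 0.709 to 40.2 ± 0.615 CPM. Genes named for seeds were among them. The tonoplast aquaporin TIP3-2 (evm.TU.Ft3.4505), which in Arabidopsis belongs to maturing seeds, rose 23.7-fold, from 1.6, 0.859 and 0.78 CPM at 4 h to 28.5, 25.2 and 23.8 CPM at 8 h. Oleosin 5 (evm.TU.Ft8.2523), a coat protein of oil bodies, went from 2.13 ± 0.253 to 23 ± 2.01 CPM, and a vicilin storage protein gene (evm.TU.Ft4.4147) from 10.8 ± 0.32 to 95.1 ± 4.15 CPM. The remaining 2 rises, FLA11 and CESA7, belong to the secondary cell wall and are described with it.

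Photosynthesis genes, already low by 4 h, fell much further. Of 23 light-harvesting genes, which encode the chlorophyll-binding antenna, 20 were lower and 1 higher, with a median log2 change of -2.08. CAB3C (evm.TU.Ft8.5184) was at 1441, 1440.5 and 1446 CPM at 4 h and 171, 159 and 156 CPM at 8 h. LHCB5 (evm.TU.Ft3.2698), the minor antenna protein CP26, went from 1092 ± 11.2 to 133 ± 2.82 CPM, and the chlorophyll a-b binding gene evm.TU.Ft8.5183 from 1587 ± 13.9 to 189 ± 6.57 CPM. For these 3 genes, named for their small p-values, the fall was 8.20-fold to 8.90-fold. Of 37 genes of the photosystems and electron transport, 35 were lower and 2 higher (median -0.79), and PSBS (evm.TU.Ft2.3625), needed for heat dissipation of excess light, fell from 118 ± 5.77 to 27.2 ± 1.98 CPM. PSAO (evm.TU.Ft2.5878) and PSAN (evm.TU.Ft7.4821), small subunits of photosystem I, fell to 324 and 140.0 CPM.

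Carbon fixation went the same way: 22 of 25 Calvin cycle genes were lower and 0 higher (median -1.05). RCA1 (evm.TU.Ft5.2681), the activase that frees Rubisco of bound inhibitors, was at 2216, 2170.2 and 2109 CPM at 4 h and 251, 252 and 238 CPM at 8 h, a log2 change of -3.13 (SE 0.0353, edgeR adjusted p = 6.42e-41). Its mean was 14309 CPM in the control and 5619 CPM at 2 h. Phosphoribulokinase (evm.TU.Ft2.692), which regenerates the carbon dioxide acceptor, fell from 250.0 ± 6.67 to 44.7 ± 1.74 CPM, and the aldolase FBA2 (evm.TU.Ft6.3384) from 789 ± 8.33 to 139.9 ± 6.25 CPM. The step from 4 to 8 h was lower than that from 2 to 4 h in 19 of 23 light-harvesting genes, 30 of 37 photosystem genes and 20 of 25 Calvin cycle genes, by the test of the difference in the same fit, against 29% of all genes. The medians for 2 to 4 h were -0.11, -0.23 and -0.68. These steps last 4 and 2 h and share the 4 h libraries, so a lower step need not be a faster fall. The marker list of green tissue, which overlaps these lists, had 21 of 22 genes lower; its part in the other results was not tested.

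Chlorophyll synthesis genes had a less uniform course, with 13 of 29 lower and 7 higher (median -0.17, and 0.05 with 13 higher and 11 lower by library size alone). Those of the magnesium branch that are named here fell: CHLH (evm.TU.Ft7.2841), the porphyrin-binding subunit of magnesium chelatase, from 327 ± 10.05 to 48.2 ± 2.43 CPM, CRD1 (evm.TU.Ft5.1640), the cyclase, from 286 ± 0.662 to 72.1 ± 3.04 CPM, and CAO (evm.TU.Ft3.5275), which makes chlorophyll b, from 138 ± 4.63 to 44.3 ± 1.39 CPM. Genes of chlorophyll breakdown and senescence were also mostly lower, 17 of 24 against 2 higher (median -0.55, and -0.33 with 5 higher and 15 lower by library size alone). NYC1 (evm.TU.Ft3.1695), the chlorophyll b reductase of senescing leaves, stood at 90.5 CPM in the control, 169 CPM at 2 h and 328 CPM at 4 h and fell to 174 CPM at 8 h. Pheophytinase PPH (evm.TU.Ft5.2568), which removes the phytol tail, went through 76.3, 151, 271 and 134 CPM at the 4 times. The other PPH genes (evm.TU.Ft8.1098, evm.TU.Ft4.769 and evm.TU.Ft8.2679) and the senescence-associated AAF (evm.TU.Ft1.624) also fell between 4 and 8 h, by log2 changes of -1.21, -0.92, -0.89 and -1.49. For these the control mean was above that of every PEG time.

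Clock genes moved in both directions. LHY, a MYB-like repressor expressed around dawn in Arabidopsis, fell in both copies: evm.TU.Ft5.2081 was at 65.1, 67.2 and 58.4 CPM at 4 h and 2.73, 2.65 and 3.18 CPM at 8 h (log2 -4.47 (SE 0.0668, edgeR adjusted p = 2.52e-37)), and evm.TU.Ft7.3783 went from 38.5 ± 1.38 to 2.34 ± 0.108 CPM. Both had descended at each sampled time, from 1272 and 368 CPM in the control. The LNK genes, co-activators that act with LHY relatives, fell as well, LNK2 (evm.TU.Ft1.827) from 406 ± 8.89 to 86.8 ± 4.3 CPM, the other LNK2 gene (evm.TU.Ft2.6184) from 172 ± 4.28 to 21.8 ± 1.07 CPM, LNK3 (evm.TU.Ft6.2587) from 29.3 ± 0.503 to 3.86 ± 0.44 CPM and LNK1 (evm.TU.Ft7.3618) from 88.5 ± 1.74 to 44.8 ± 3.43 CPM. The REVEILLE genes RVE1 (evm.TU.Ft8.4852), RVE6 (evm.TU.Ft5.2154) and RVE8 (evm.TU.Ft2.5651) changed by -0.96, -0.77 and -0.74, and the cyclic DOF factors CDF1 (evm.TU.Ft4.1039), CDF2 (evm.TU.Ft4.2167) and CDF3 (evm.TU.Ft1.2326), repressors of flowering genes, by -1.04, -1.33 and -1.38.

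Among genes named for the evening complex and its partners, LUX (evm.TU.Ft2.5970), its DNA-binding part, was at 6.26, 5.92 and 5.53 CPM at 4 h and 15.1, 15.2 and 14.8 CPM at 8 h, and ELF3 (evm.TU.Ft3.1550), its scaffold, went from 46.8 ± 0.362 to 69.1 ± 0.269 CPM. APRR1 (evm.TU.Ft1.2292), the pseudo-response regulator TOC1 of Arabidopsis, went from 57.9 ± 1.94 to 109 ± 3.26 CPM, ELF3-2 (evm.TU.Ft3.2066) from 3.72 ± 0.169 to 11.8 ± 0.57 CPM and BOA (evm.TU.Ft2.4448) from 2.78 ± 0.174 to 4.98 ± 1.1 CPM. PCL1 (evm.TU.Ft2.5967), near 1 CPM, had a log2 change of 1.64 (SE 0.448, edgeR adjusted p = 0.00166). Of the ELF4-like genes, which are outside the clock list and named after their values were seen, EFL1 (evm.TU.Ft8.4320) rose from 14.7 to 40.8 CPM, and the EFL4 genes evm.TU.Ft1.143 and evm.TU.Ft2.4744 fell from 12.4 to 9.08 CPM and from 33.7 to 24.9 CPM. The pseudo-response regulators were split: an APRR5 gene (evm.TU.Ft5.2085) fell from 336 ± 9.42 to 93.9 ± 2.07 CPM while another (evm.TU.Ft3.2199) rose from 266 ± 4.79 to 333 ± 9.54 CPM, APRR7 (evm.TU.Ft8.2891) and PRR37 (evm.TU.Ft5.1444) fell by -0.71 and -0.41 on the log2 scale, and APRR2 (evm.TU.Ft4.1860) rose by 0.26. GI (evm.TU.Ft5.1410), a scaffold of clock protein turnover, was at 1281, 1274 and 1274 CPM at 4 h and 1143, 1163 and 1171 CPM at 8 h; its log2 change of -0.14 became 0.08 by library size alone. TIC (evm.TU.Ft5.1823), XCT (evm.TU.Ft7.3616) and the blue-light receptor ADO1 (evm.TU.Ft8.888) were not called, with log2 changes of 0.04, -0.07 and -0.02. By library size alone they were called higher, with 0.26, 0.15 and 0.19 (edgeR adjusted p = 5.94e-06, 0.0399 and 1.56e-04). CRY1 (evm.TU.Ft4.4607), a cryptochrome, fell from 253 ± 4.19 to 159.7 ± 2.81 CPM. In all, 22 of 37 clock genes were lower and 11 higher (median -0.41), and 20 lower and 15 higher by library size alone. Time of day, which advanced with the hours in PEG, cannot be told apart from the treatment here.

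**Figure D3:**
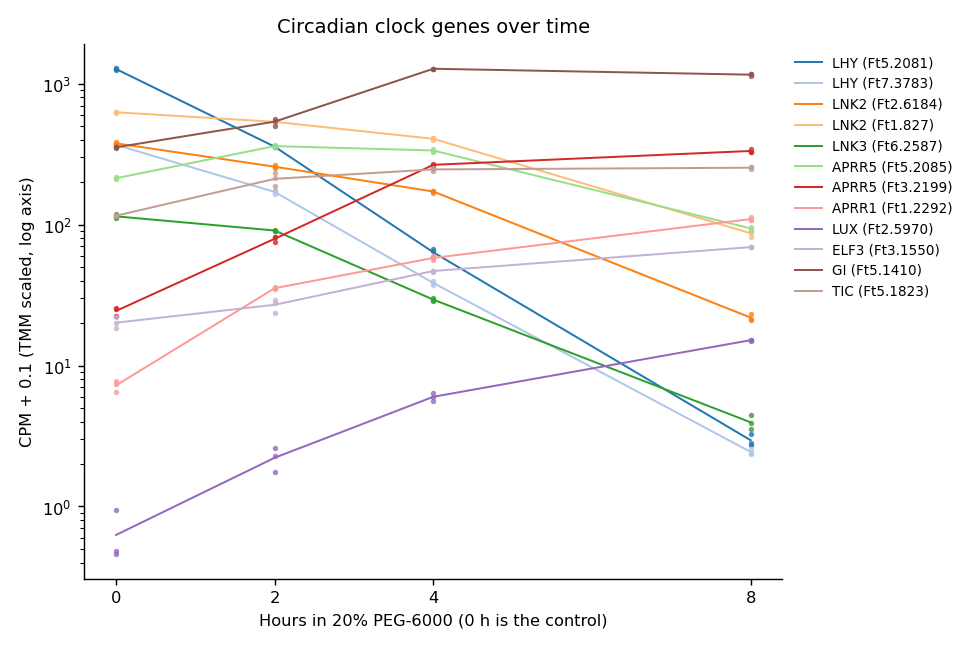
CPM plus 0.1 on a log axis against hours in PEG (0 h is the control) for clock genes; points are the libraries and lines join the means of 3. Both LHY genes and LNK3 descend to below 5 CPM at 8 h, LUX, ELF3 and APRR1 ascend, and TIC is nearly level between 4 and 8 h.

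In the phenylpropanoid entry, which supplies lignin, flavonoids and other phenolics, 8 of 11 genes were lower and 2 higher (median -0.47). The trans-cinnamate 4-monooxygenase genes, for the second step, were lower in 5 of 5 (a grouping made after the values were seen). CYP73A4 (evm.TU.Ft2.5323) was at 304, 291 and 308 CPM at 4 h and 225, 223 and 205 CPM at 8 h (log2 -0.47 (SE 0.0396, edgeR adjusted p = 3.00e-13)), while CYP73A16 (evm.TU.Ft2.3216) and CYP73A13 (evm.TU.Ft2.3215) fell from 30.1 ± 2.91 to 10.7 ± 1.04 CPM and from 29 ± 0.689 to 13 ± 0.578 CPM. CYP73A14 (evm.TU.Ft8.4110) fell from 22 ± 0.84 to 9.61 ± 1.35 CPM. A 4-coumarate ligase of the third step, 4CL1 (evm.TU.Ft3.946), went from 80.1 ± 5.26 to 37.7 ± 2.1 CPM. Of the 2 genes tested in that class, 1 was higher and 1 lower. Phenylalanine ammonia-lyases, of the first step, were higher in 1 of 4 genes and lower in 2. The higher gene, PAL (evm.TU.Ft6.641), went from 133, 142 and 131 CPM at 4 h to 233, 243 and 239 CPM at 8 h (log2 0.82 (SE 0.0383, edgeR adjusted p = 5.21e-21)). It was also above its control mean of 116 CPM.

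Flavonol genes beyond that entry were more often higher: 13 of 28 higher and 7 lower (median 0.44), and 16 and 6 by library size alone. Chalcone synthase, the first committed enzyme, was higher in 7 of 9 genes and lower in 0. CHS (evm.TU.Ft3.2401) was at 421, 425 and 428 CPM at 4 h and 729.9, 667 and 699.5 CPM at 8 h (log2 0.72 (SE 0.0378, edgeR adjusted p = 2.11e-19)), CHS2 (evm.TU.Ft3.228) at 12.5, 10.8 and 10.3 CPM at 4 h and 58.2, 63.1 and 60.4 CPM at 8 h (log2 2.44 (SE 0.0993, edgeR adjusted p = 5.96e-23)). A further CHS2 gene (evm.TU.Ft6.200) went from 30.3 ± 0.921 to 45.4 ± 2.53 CPM. Genes of this list were named by their p-values or abundance, so nothing is read from the separation of their libraries. Chalcone isomerase CHI (evm.TU.Ft5.2894) rose from 48.7 ± 1.8 to 74.2 ± 2.25 CPM. Of the flavanone 3-hydroxylases, which form dihydroflavonols, evm.TU.Ft8.3108 rose from 14.5 ± 0.797 to 62.2 ± 3.31 CPM and evm.TU.Ft7.4650 from 101 ± 3.13 to 124 ± 5.39 CPM. F3H-2 (evm.TU.Ft4.6145) was at 18.7 and 20.3 CPM and not called. By library size alone F3H-2 was called higher (log2 0.34, edgeR adjusted p = 2.52e-04).

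Flavonol synthase FLS (evm.TU.Ft5.635), which turns dihydroflavonols into flavonols, was at 33.4, 35.3 and 33.6 CPM at 4 h and 75.5, 76.6 and 82 CPM at 8 h. The log2 change was 1.2 (SE 0.0567, edgeR adjusted p = 8.18e-21). Its mean was 24.9 CPM in the control and 30.3 CPM at 2 h. The flavonoid 3'-monooxygenases, which set the B-ring pattern of quercetin, moved apart. CYP75B2 (evm.TU.Ft8.5253) rose from 35.3 ± 2.02 to 63 ± 1.99 CPM, and the CYP75B137 genes evm.TU.Ft3.39, evm.TU.Ft3.40 and evm.TU.Ft3.165 fell from 182 ± 3.18 to 79.1 ± 3.62 CPM, from 109 ± 4.52 to 44.8 ± 2.69 CPM and from 38.9 ± 1.89 to 13.6 ± 1 CPM. Counted together with the flavonoid 3',5'-hydroxylases, 6 of 8 genes were lower and 1 higher. Of the flavonoid 3',5'-hydroxylases, which add a further B-ring hydroxyl, CYP75B138 (evm.TU.Ft3.45) fell from 2.07 ± 0.533 to 0.568 ± 0.113 CPM and CYP75A1 (evm.TU.Ft7.2942) had 0.503 and 0.812 CPM and was not called.

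Glycosylation genes, whose enzymes add the sugars of rutin and related compounds, had 10 of 27 higher, 4 lower and 13 not called (median 0.05). By library size alone 13 were higher and 3 lower. RT (evm.TU.Ft4.2408), a rhamnosyltransferase annotated on anthocyanidin 3-glucosides, rose from 57, 58.5 and 61.1 CPM at 4 h to 140.4, 146 and 134 CPM at 8 h, a log2 change of 1.25 (SE 0.0462, edgeR adjusted p = 2.44e-24). Among genes annotated as kaempferol 3-O-galactosyltransferases, evm.TU.Ft6.964 rose from 13.3 ± 1.36 to 68.4 ± 6.01 CPM and evm.TU.Ft6.966 from 29.8 ± 1.69 to 81.8 ± 6.15 CPM. evm.TU.Ft6.968 fell from 12.6 ± 1.39 to 3.37 ± 0.47 CPM. Another gene of that annotation (evm.TU.Ft1.377) fell from 92.5 ± 5.12 to 65.2 ± 0.787 CPM. Near-identical copies could share reads, so values for single members of such families are uncertain. Glycosyltransferase GT6 (evm.TU.Ft1.1097) rose from 3.57 ± 0.0317 to 7.7 ± 0.727 CPM.

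The branch toward anthocyanins and proanthocyanidins was higher in 6 of 7 genes and lower in 1 (median 1.06). DFR (evm.TU.Ft4.5802), the dihydroflavonol reductase that opens the branch, rose from 141 ± 7.02 to 191 ± 6.19 CPM, and LDOX (evm.TU.Ft1.1973), anthocyanidin synthase, from 40.1 ± 3.76 to 86 ± 2.88 CPM. LAR (evm.TU.Ft3.2588), leucoanthocyanidin reductase, was at 8.65, 9.18 and 8.49 CPM at 4 h and 30.9, 28.5 and 31.7 CPM at 8 h, and ANR (evm.TU.Ft8.1358), anthocyanidin reductase, at 24.8, 25.6 and 30.6 CPM at 4 h and 72.3, 72 and 66.5 CPM at 8 h. For both, the 4 h libraries were low against 2 h means of 26.2 and 62.7 CPM, and the 8 h libraries returned to those levels or above. The other LAR gene (evm.TU.Ft6.2502) rose from 2.64 ± 0.472 to 5.5 ± 0.448 CPM, and a putative anthocyanidin reductase (evm.TU.Ft3.2909) fell from 65.7 ± 1.83 to 45.1 ± 2.43 CPM.

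Among genes of flavonoid-related MYB subgroups, 10 of 21 were higher and 2 lower (median 0.40), and 15 and 2 by library size alone. MYB12 (evm.TU.Ft5.363), named for the Arabidopsis activator of flavonol genes, was at 2.01, 2.22 and 2.31 CPM at 4 h and 10.1, 8.81 and 9.93 CPM at 8 h. Its log2 change was 2.14 (SE 0.172, edgeR adjusted p = 7.72e-14), and its earlier means were 3.3 and 2.92 CPM at 0 and 2 h. The step from 4 to 8 h exceeded that from 2 to 4 h by 2.57 on the log2 scale, over 4 h against 2 h. MYB4 (evm.TU.Ft6.1649) went from 17.7 ± 1.23 to 27.4 ± 2.66 CPM, MYB6 (evm.TU.Ft5.2098) from 11 ± 1.1 to 20.5 ± 2.1 CPM, MYB3 (evm.TU.Ft7.1268) from 5.14 ± 0.756 to 9.94 ± 0.629 CPM and MYB5 (evm.TU.Ft2.1616) from 36.9 ± 1.6 to 56.1 ± 3.14 CPM. Another MYB5 gene (evm.TU.Ft1.1439) fell from 4.43 ± 0.936 to 2.55 ± 0.535 CPM. The other MYB4 genes above 10 CPM, named after their values were seen, were not called, with log2 changes of -0.12 (evm.TU.Ft1.1022), 0.13 (evm.TU.Ft5.2063) and -0.08 (evm.TU.Ft5.2593). Of all 107 MYB genes, 42 were higher and 30 lower (median 0.10, and 0.32 with 56 higher and 25 lower by library size alone). MYB15 (evm.TU.Ft5.1785) fell from 5.65 ± 0.512 to 0.674 ± 0.151 CPM, the MYB62 genes evm.TU.Ft1.489 and evm.TU.Ft6.1055 from 131 ± 5.75 to 54.8 ± 0.571 CPM and from 15.5 ± 0.287 to 6.89 ± 0.656 CPM, and MYBS3 (evm.TU.Ft2.921) from 56.2 ± 1.92 to 33 ± 0.734 CPM. MYB78 (evm.TU.Ft5.998) rose from 9.61 ± 1.12 to 24.2 ± 2.83 CPM. The bHLH and WD40 list, which includes partners of MYB factors, had 48 of 112 higher and 33 lower (median 0.10, and 0.32 with 61 higher and 24 lower by library size alone), with falls in BHLH106 (evm.TU.Ft7.2949, log2 -4.31), UNE10 (evm.TU.Ft6.3116, -1.24) and PIF7 (evm.TU.Ft8.5237, -1.44).

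**Figure D4:**
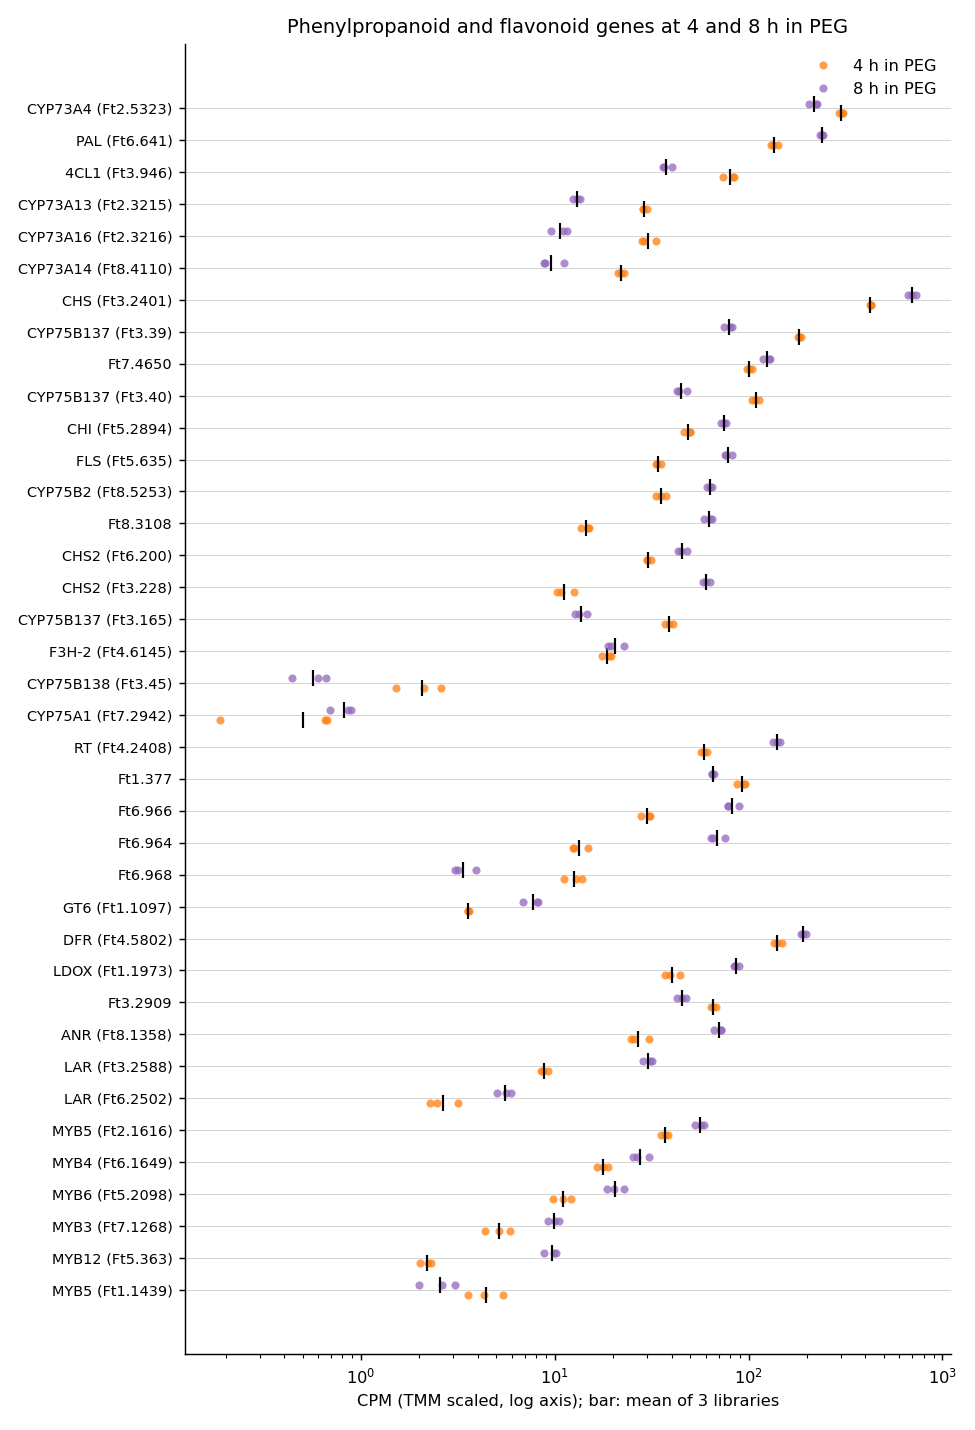
CPM of each library on a log axis at 4 h (orange) and 8 h (purple) in PEG for phenylpropanoid, flavonol, glycosylation, proanthocyanidin and MYB genes, from the entry of the pathway (top) to its regulators (bottom); bars mark the mean of 3. The entry genes CYP73A4 and 4CL1 and the CYP75B137 genes are lower at 8 h, whereas chalcone synthase, FLS, RT, LDOX, ANR, LAR and MYB12 are higher.

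Secondary wall genes named here rose from low levels. CESA4 (evm.TU.Ft2.381), CESA7 (evm.TU.Ft3.965) and CESA8 (evm.TU.Ft8.5098) encode the cellulose synthase subunits of woody walls in Arabidopsis. CESA7 was at 1.98, 2.49 and 1.72 CPM at 4 h and 22.7, 21.6 and 19.6 CPM at 8 h (log2 3.36 (SE 0.151, edgeR adjusted p = 1.34e-21)), and CESA4 and CESA8 went from 3.91 ± 0.77 to 28.1 ± 1.49 CPM and from 3.12 ± 0.426 to 23.9 ± 1.82 CPM. At 0 and 2 h their means lay between 1.78 and 4.11 CPM, so the rise fell within the last interval. FLA11 (evm.TU.Ft3.803), a fasciclin-like arabinogalactan protein of wood-forming cells, was at 2.15, 1.36 and 2.09 CPM at 4 h and 44.3, 41 and 39.1 CPM at 8 h (log2 4.47 (SE 0.125, edgeR adjusted p = 2.60e-28)). MYB63 (evm.TU.Ft7.4272), an activator of lignin genes in Arabidopsis, went from 1.05 ± 0.217 to 8.95 ± 1.05 CPM.

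Further genes of this kind, chosen after their values were seen, were the xylan genes IRX9 (evm.TU.Ft3.788, 0.379 to 3.74 CPM), IRX14 (evm.TU.Ft5.841, 0.187 to 0.928 CPM) and IRX15 (evm.TU.Ft7.4767, 0.569 to 6.07 CPM), the laccase gene IRX12 (evm.TU.Ft8.2994, 1.96 to 7.88 CPM) and the NAC factors NAC043 (evm.TU.Ft2.405, 1.73 to 5.06 CPM) and NAC073 (evm.TU.Ft2.6528, 1.85 to 5.41 CPM), which switch on wall thickening in Arabidopsis. All of these rose, but they were picked with their values known, so nothing is read from their shared direction. Over the list of vascular and secondary wall markers 13 of 29 were higher and 6 lower (median 0.16, and 0.38 with 18 higher and 3 lower by library size alone), and its summed level was 704.5 to 710.7 CPM at 4 h and 958.9 to 997.2 CPM at 8 h. Whether a change in the share of vascular cells has a part in this was not tested.

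The lignin list as a whole went the other way, with 38 of 73 lower and 21 higher (median -0.42). LAC9 (evm.TU.Ft5.991), a putative laccase, was at 201, 210.5 and 209.8 CPM at 4 h and 3.98, 4.18 and 4.35 CPM at 8 h, a log2 change of -5.63 (SE 0.0876, edgeR adjusted p = 8.50e-37). CCOAOMT1 (evm.TU.Ft5.843), a methyltransferase of monolignol synthesis, fell from 87.4 ± 4.36 to 21.7 ± 1.92 CPM. Laccases were mixed, 12 of 21 higher and 5 lower. Of the secretory peroxidases, which can polymerise lignin or act in defence, 27 of 50 were lower and 13 higher (median -0.52), and the size of the falls was wide. PER51 (evm.TU.Ft7.5013) went from 83.5 ± 1.95 to 6.23 ± 0.442 CPM and PER12 (evm.TU.Ft4.4444) from 258 ± 4.74 to 41.7 ± 4.86 CPM. In the other direction, named after their values were seen, PNC1 (evm.TU.Ft8.994) rose from 24.4 ± 2.02 to 78.4 ± 4.6 CPM and PER64 (evm.TU.Ft7.3221), which in Arabidopsis serves the lignin of the Casparian strip, from 2.22 ± 0.311 to 17.5 ± 1.09 CPM.

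**Figure D5:**
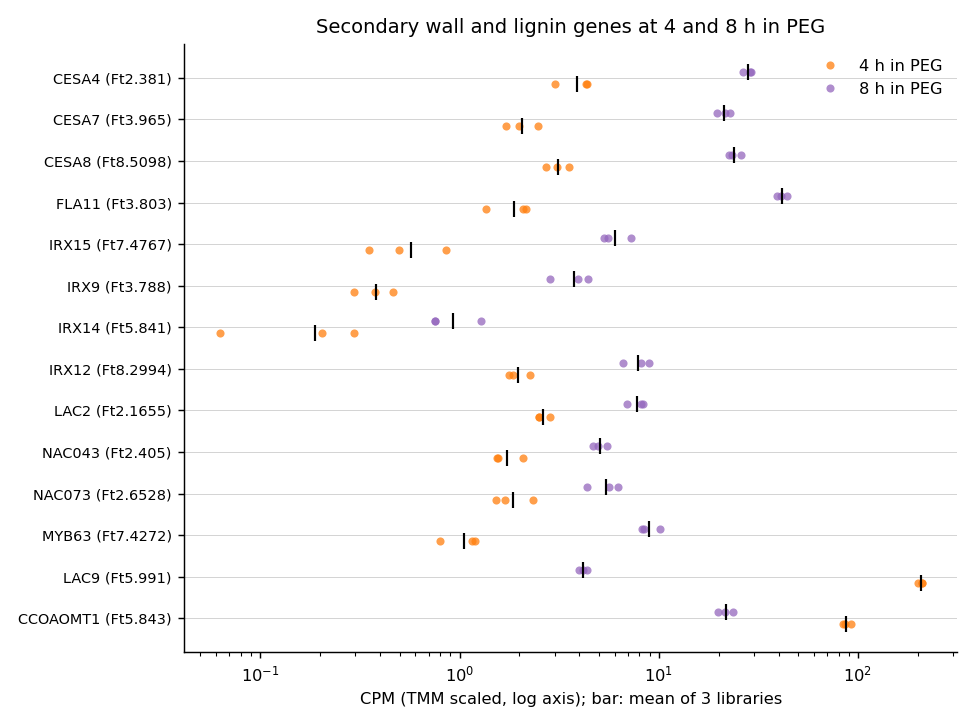
CPM of each library on a log axis at 4 h (orange) and 8 h (purple) in PEG for secondary wall and lignin genes; bars mark the mean of 3. The cellulose synthase, xylan, NAC and MYB63 genes and the laccase genes LAC2 and IRX12 are higher at 8 h. The putative laccase LAC9 and CCOAOMT1 are lower. The xylan, NAC, LAC2 and IRX12 genes were picked with their values known.

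Of 20 genes of ABA metabolism 5 were higher and 8 lower (median 0.00, and 0.22 with 10 higher and 7 lower by library size alone), and of 40 ABA signalling genes 15 were higher and 15 lower (median 0.00, and 0.22 with 22 higher and 7 lower by library size alone). Zeaxanthin epoxidase (evm.TU.Ft4.4858), an early plastid step of ABA synthesis, was at 531, 522 and 488 CPM at 4 h and 145, 149 and 143 CPM at 8 h, a log2 change of -1.82 (SE 0.0361, edgeR adjusted p = 2.68e-33). AAO3 (evm.TU.Ft4.5670), the aldehyde oxidase of the last step, fell from 16.8 ± 0.805 to 8.88 ± 1.3 CPM. The dioxygenase gene NCED1 (evm.TU.Ft6.1013), named after its values were seen because it encodes the committed step, was near its 4 h level at 8 h, with 149.9, 148 and 147 CPM at 4 h and 167, 169 and 162 CPM at 8 h (log2 0.16 (SE 0.041, edgeR adjusted p = 7.90e-04)). Of the ABA 8'-hydroxylases, which degrade the hormone, CYP707A2 (evm.TU.Ft2.5976) rose from 60.6 ± 3.16 to 82.3 ± 2.4 CPM, while the CYP707A1 genes evm.TU.Ft3.5518 and evm.TU.Ft2.6073 and the other CYP707A2 gene (evm.TU.Ft4.5727) fell, with log2 changes of -0.84, -0.83 and -1.17.

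Within ABA signalling, the classes differed in their counts, by a grouping made after the values were seen. Receptor genes were lower in 8 of 11 and higher in 1, and that 1 was PYL8 (evm.TU.Ft5.954), at 59.5, 66.9 and 57.1 CPM at 4 h and 131, 130.4 and 134 CPM at 8 h (log2 1.11 (SE 0.0519, edgeR adjusted p = 5.23e-21)). PYL4 (evm.TU.Ft2.6220) fell from 5.23 ± 0.787 to 0.522 ± 0.102 CPM. Protein phosphatases 2C, which the receptors inhibit, were higher in 6 of 7 and lower in 1. PP2C51 (evm.TU.Ft1.1645) went from 636 ± 11.9 to 938 ± 24.2 CPM and PP2CA (evm.TU.Ft7.219) from 189.9 ± 2.78 to 302 ± 7.36 CPM. SnRK2 kinases were higher in 5 of 12 and lower in 4, with SAPK10 (evm.TU.Ft7.2477) rising from 143 ± 3.86 to 246 ± 2.84 CPM and SAPK7 (evm.TU.Ft2.1743) from 23.5 ± 0.709 to 46.9 ± 1.48 CPM. Each of these 5 rising genes had its highest mean of the 4 times at 8 h.

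Genes of late embryogenesis abundant proteins and dehydrins, which protect membranes and proteins in drying cells, were higher in 14 of 22 and lower in 4 (median 0.37). ECP63 (evm.TU.Ft3.119) was at 226, 228 and 225 CPM at 4 h and 807, 762 and 785 CPM at 8 h (log2 1.8 (SE 0.0369, edgeR adjusted p = 8.30e-33)), after 0.428 CPM in the control and 78.6 CPM at 2 h. The seed maturation gene GMPM1 (evm.TU.Ft1.1425) went from 55.3 ± 3.63 to 232 ± 7.96 CPM, and the D-34 genes evm.TU.Ft4.5279 and evm.TU.Ft8.1669 from 5.81 ± 0.486 to 32.5 ± 1.94 CPM and from 5.04 ± 0.739 to 19.1 ± 1.44 CPM. Another ECP63 gene (evm.TU.Ft1.571) went from 1.28 ± 0.121 to 8.96 ± 0.716 CPM. The mean of each of these genes was higher at each later time. LEA5-A (evm.TU.Ft1.1300), by contrast, was at 1365, 1345 and 1358 CPM at 4 h and 506, 533 and 499.5 CPM at 8 h, a fall of 2.64-fold from its peak. COR410 (evm.TU.Ft2.6574), a dehydrin named after its values were seen, changed by 0.1 (SE 0.034, edgeR adjusted p = 0.00756) around 1206 CPM. Markers of seed, including storage proteins and oleosins, had 7 of 15 higher and 5 lower (median 0.34, and 0.56 with 7 higher and 2 lower by library size alone), with a summed level of 250.1 to 256.7 CPM at 4 h and 283.6 to 302.2 CPM at 8 h. Against the rises of vicilin and oleosin 5, the 11S globulin gene evm.TU.Ft8.1805 fell from 149 ± 4.91 to 62.3 ± 4.93 CPM.

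Among osmoprotectant and sugar genes, several that had climbed to 4 h fell back while others rose. For raffinose synthesis, RFS6 (evm.TU.Ft6.3528), a galactinol-sucrose galactosyltransferase, was at 2257, 2264 and 2187 CPM at 4 h and 411, 395 and 407 CPM at 8 h (log2 -2.47 (SE 0.0327, edgeR adjusted p = 6.23e-39)), and RFS1 (evm.TU.Ft5.1181) fell from 816 ± 5 to 83.3 ± 9.41 CPM. RFS2 (evm.TU.Ft4.1125) rose from 59.1 ± 1.72 to 121 ± 6.44 CPM. The list had 4 of 10 higher and 3 lower (median 0.08), and 6 higher and 3 lower by library size alone. POX1 (evm.TU.Ft5.2663), proline dehydrogenase, which degrades proline, fell from 298 ± 8.44 to 58.8 ± 1.62 CPM. Pyrroline-5-carboxylate reductase (evm.TU.Ft8.534), the last enzyme of proline synthesis, rose from 36.5 ± 2.12 to 45.7 ± 1.69 CPM, and the transporter PROT1 (evm.TU.Ft1.1041) fell from 92.8 ± 4.34 to 72.8 ± 2.38 CPM. With 2 of 7 higher and 3 lower, the proline list had a median of -0.09 (0.13 with 3 higher and 2 lower by library size alone).

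In sucrose metabolism, sucrose synthase genes moved apart. SS (evm.TU.Ft4.2631) went from 319, 315 and 317 CPM at 4 h to 839.8, 843 and 817 CPM at 8 h (log2 1.39 (SE 0.0385, edgeR adjusted p = 1.53e-28)), and the other SS gene (evm.TU.Ft6.472) from 248, 248 and 265 CPM to 37.2, 37.2 and 39.8 CPM (log2 -2.74 (SE 0.0472, edgeR adjusted p = 2.64e-35)). Both SS genes were named for their small p-values, so nothing is read from the separation of their libraries. INV1 (evm.TU.Ft3.911), a cell wall invertase, fell from 306 ± 4.43 to 29.3 ± 1.04 CPM. The list had 26 of 54 lower and 16 higher (median -0.19, and 0.02 with 21 higher and 19 lower by library size alone).

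Starch genes likewise moved in both directions. WAXY (evm.TU.Ft2.401), the granule-bound synthase that makes amylose, fell from 238 ± 8.14 to 22.4 ± 1.72 CPM, and a second gene of that name (evm.TU.Ft4.3917) rose from 34 ± 0.607 to 93.4 ± 1.51 CPM. ADG2 (evm.TU.Ft5.1868), of the enzyme that makes ADP-glucose, fell by -1.09 on the log2 scale. In starch breakdown, AMY1.1 (evm.TU.Ft3.5515), an alpha-amylase, went from 346 ± 1.67 to 37.3 ± 1.75 CPM, and BAM1 (evm.TU.Ft7.5172), the beta-amylase of stressed leaves in Arabidopsis, from 1154 ± 11.6 to 655 ± 2.34 CPM. A second AMY1.1 gene (evm.TU.Ft5.865) fell from 48.9 ± 3.22 to 16.3 ± 0.342 CPM. Counts were 10 of 24 higher and 8 lower for synthesis (median 0.23) and 14 of 31 higher and 11 lower for breakdown (median 0.11, and 0.33 with 18 higher and 9 lower by library size alone). Sugar transporters had 35 of 75 lower and 22 higher (median -0.07, and 0.15 with 30 higher and 32 lower by library size alone). PLT5 (evm.TU.Ft8.1937), HEX6 (evm.TU.Ft2.5786) and STP8 (evm.TU.Ft7.5305) fell by log2 changes of -2.57, -2.13 and -1.3.

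Among stress-related transcription factors, WRKY genes, which answer pathogens and wounding, were lower in 42 of 72 and higher in 8 (median -0.52, and -0.30 with 16 higher and 30 lower by library size alone), and 26 fell at least 2-fold against 0 that rose as much. WRKY33 (evm.TU.Ft8.948) was at 269.7, 267 and 269 CPM at 4 h and 69.9, 72.7 and 70.3 CPM at 8 h (log2 -1.92 (SE 0.0383, edgeR adjusted p = 3.15e-33)), beside a control mean of 70.5 CPM. WRKY70 (evm.TU.Ft2.4587) went from 77.2 ± 5.35 to 17.8 ± 0.591 CPM and WRKY24 (evm.TU.Ft2.5314) from 346 ± 5.17 to 129 ± 5.11 CPM. NAC genes were lower in 32 of 65 and higher in 15 (median -0.21, and 0.01 with 20 higher and 22 lower by library size alone). JA2L (evm.TU.Ft2.5584), which in tomato acts in stomatal reopening, went from 202 ± 2.69 to 38.1 ± 0.874 CPM, NAC021 (evm.TU.Ft1.2807) from 171 ± 1.76 to 72.7 ± 1.88 CPM and NAC056 (evm.TU.Ft2.3437) from 74.1 ± 1.26 to 22.4 ± 0.353 CPM.

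Ethylene response and related AP2 factors had 31 of 97 higher and 37 lower (median -0.01, and 0.21 with 46 higher and 30 lower by library size alone), yet 21 fell at least 2-fold against 9 that rose as much, among them ERF1A (evm.TU.Ft6.374), from 36.6 ± 0.269 to 4.13 ± 0.658 CPM, ERF5 (evm.TU.Ft6.375), from 94.4 ± 3.72 to 21 ± 0.753 CPM, and RAV2 (evm.TU.Ft7.434), from 115 ± 2.1 to 45.8 ± 0.743 CPM. DREB factors, which bind the dehydration-responsive element, had 4 of 13 higher and 3 lower (median 0.08, and 0.29 with 6 higher and 1 lower by library size alone). DREB2D (evm.TU.Ft5.3003) and DREB2A (evm.TU.Ft3.1188) rose at low levels, to 3.76 and 1.13 CPM, and DREB3 (evm.TU.Ft4.3114) fell from 40.6 ± 0.885 to 32.1 ± 0.706 CPM, a call lost by library size alone (DREB3 log2 -0.121, edgeR adjusted p = 0.0776). Heat stress factors had 11 of 32 higher and 12 lower (median -0.08, and 0.14 with 15 higher and 10 lower by library size alone), with HSFA6b (evm.TU.Ft7.5245) rising from 53.2 ± 0.361 to 129 ± 4.85 CPM and HSFB3 (evm.TU.Ft7.2846) and HSFA5 (evm.TU.Ft3.306) falling from 158 ± 6.14 to 24.8 ± 1.08 CPM and from 63.8 ± 1.56 to 27.5 ± 0.672 CPM. The bZIP list had 14 of 54 higher and 18 lower (median -0.05, and 0.17 with 24 higher and 12 lower by library size alone), and BZIP44 (evm.TU.Ft8.4622), CPRF2 (evm.TU.Ft3.4182) and BZIP53 (evm.TU.Ft4.4014) fell by -1.59, -0.95 and -0.88. Zinc finger and CONSTANS-like genes had 24 of 90 higher and 37 lower (median -0.07, and 0.15 with 37 higher and 31 lower by library size alone), with COL2 (evm.TU.Ft8.2678), COL4 (evm.TU.Ft8.4494) and BBX24 (evm.TU.Ft8.3400) falling from 41.7, 733 and 178 CPM to 7.09, 256 and 68.3 CPM. HD-ZIP factors had 26 of 46 higher and 11 lower (median 0.38, and 0.60 with 29 higher and 5 lower by library size alone). HOX22 (evm.TU.Ft4.1291), ATHB-13 (evm.TU.Ft4.1015) and ATHB-16 (evm.TU.Ft7.2642) rose from 34.4 ± 0.781 to 69.99 ± 1.6 CPM, from 13.1 ± 0.917 to 36 ± 1.63 CPM and from 37.3 ± 2.2 to 68.9 ± 2.09 CPM.

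Jasmonate genes were lower in 27 of 46 and higher in 9 (median -0.38, and -0.16 with 14 higher and 20 lower by library size alone), against the large rise of LOX2.1. Genes annotated as 12-oxophytodienoate reductases were lower in 8 of 9 and higher in 0, by a grouping made after the values were seen. Which of them act in jasmonate synthesis was not tested. OPR11 (evm.TU.Ft6.1317) was at 67.9, 69.2 and 71 CPM at 4 h and 2.39, 2.44 and 2.71 CPM at 8 h (log2 -4.78 (SE 0.0918, edgeR adjusted p = 8.44e-34)), and OPR1 (evm.TU.Ft6.1313) fell from 63.2 ± 0.492 to 9.49 ± 0.371 CPM. AOC (evm.TU.Ft1.463), an allene oxide cyclase that acts after the lipoxygenase, named after its values were seen, rose from 15.4 ± 0.627 to 60.3 ± 1.11 CPM. Its control mean was 53.9 CPM. Ethylene genes were lower in 26 of 49 and higher in 9 (median -0.23, and -0.02 with 18 higher and 20 lower by library size alone). ACS1 (evm.TU.Ft6.1713) and ACO1 (evm.TU.Ft2.6493), for the last 2 enzymes of ethylene synthesis, fell from 21.7 ± 1.9 to 5.45 ± 0.345 CPM and from 443 ± 17.8 to 180.2 ± 1.83 CPM, and the oxidase homologue evm.TU.Ft7.5076 from 74.8 ± 1.99 to 31.5 ± 1.52 CPM.

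In signalling, the MAP kinase list had 24 of 49 lower and 13 higher (median -0.13, and 0.09 with 21 higher and 16 lower by library size alone), and the calcium list 68 of 146 lower and 32 higher (median -0.18, and 0.04 with 53 higher and 56 lower by library size alone). MPK3 (evm.TU.Ft5.1145), a stress-activated MAP kinase, was at 32.2, 33.2 and 31.8 CPM at 4 h and 4.58, 3.79 and 5.58 CPM at 8 h (log2 -2.79 (SE 0.0874, edgeR adjusted p = 1.03e-26)). The MAP kinase kinase kinase genes MEKK1 (evm.TU.Ft3.522) and MAPKKK17 (evm.TU.Ft8.4341) fell from 30.8 ± 1.15 to 8.46 ± 1.08 CPM and from 64.3 ± 0.984 to 24.4 ± 0.667 CPM. CIPK32 (evm.TU.Ft5.84), CIPK1 (evm.TU.Ft4.790) and CIPK7 (evm.TU.Ft7.5208), kinases controlled by calcineurin B-like calcium sensors, fell from 172 ± 9.57 to 38.3 ± 1.99 CPM, from 15.4 ± 0.594 to 2.67 ± 0.108 CPM and from 589.5 ± 1.37 to 239.8 ± 3.9 CPM. CIPK1 and CIPK32 had been highest in the control, CIPK7 at 4 h.

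Detoxification enzymes showed wide falls. Of 14 glutathione S-transferases of the tau class, which conjugate electrophiles, 11 were lower and 3 higher, with a median of -2.12, by a grouping made after the values were seen; the whole family of 58 had 31 lower and 18 higher (median -0.27, and -0.05 with 24 higher and 27 lower by library size alone). GSTU9 (evm.TU.Ft5.836) was at 231, 237 and 247 CPM at 4 h and 5.39, 6.77 and 7.98 CPM at 8 h (log2 -5.15 (SE 0.0727, edgeR adjusted p = 4.71e-38)), and GSTU18 (evm.TU.Ft1.266) and GSTU8 (evm.TU.Ft7.771) fell from 174 ± 1.23 to 20.7 ± 1.02 CPM and from 109 ± 1.69 to 8.49 ± 0.295 CPM. All had been lower than this 4 h level in the control. GSTT1 (evm.TU.Ft4.3619), of the theta class and named after its values were seen, rose from 3.86 ± 0.639 to 17.1 ± 2.17 CPM. Cytochrome P450 genes were lower in 107 of 199 and higher in 43 (median -0.57), with 67 falling and 18 rising at least 2-fold. CYP76AJ1 (evm.TU.Ft1.1969), CYP736A117 (evm.TU.Ft2.3926) and CYP76T24 (evm.TU.Ft4.3532) fell from 250.5 ± 6.53 to 6.75 ± 1.62 CPM, from 182 ± 7.28 to 5.57 ± 0.922 CPM and from 79.7 ± 4.09 to 3.04 ± 0.159 CPM. Another CYP76T24 gene (evm.TU.Ft3.1317), named after its values were seen, rose from 3.6 ± 0.424 to 24.8 ± 1.61 CPM.

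UDP-glycosyltransferases had 42 of 99 lower and 24 higher (median -0.19, and 0.03 with 38 higher and 36 lower by library size alone), with UGT75C1 (evm.TU.Ft7.3088), UGT75L6 (evm.TU.Ft7.3089) and UGT29 (evm.TU.Ft7.4295) falling from 323 ± 6.99 to 78.4 ± 2.15 CPM, from 57.7 ± 2.36 to 13.1 ± 1.34 CPM and from 37.2 ± 2.52 to 6.81 ± 0.612 CPM. Antioxidant enzymes had 44 of 125 higher and 43 lower (median -0.01, and 0.21 with 64 higher and 33 lower by library size alone). The chloroplast glutathione reductase evm.TU.Ft5.1723, which keeps glutathione reduced, was at 243, 239 and 250.2 CPM at 4 h and 56, 50.6 and 54 CPM at 8 h (log2 -2.19 (SE 0.0428, edgeR adjusted p = 1.66e-33)), after climbing from 24.3 CPM in the control. The chloroplast thioredoxin evm.TU.Ft3.5192 and the thioredoxin-like CDSP32 (evm.TU.Ft5.1534) fell from 668 ± 10.2 to 207 ± 7.47 CPM and from 168 ± 6.49 to 67.9 ± 1.27 CPM. These thioredoxins had been highest in the control.

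Genes for cytosolic ribosomal proteins were nearly all higher: 256 of 277 were higher and 4 lower, with a median of 0.46 (269 higher and 3 lower by library size alone). The changes were small and alike, and 4 of the 256 reached 2-fold. RPL27AB (evm.TU.Ft1.2637) was at 165, 175 and 166 CPM at 4 h and 264, 259.7 and 264 CPM at 8 h (log2 0.64 (SE 0.0365, edgeR adjusted p = 2.68e-18)), and the acidic stalk genes evm.TU.Ft2.2775 (P0) and RPP1A (evm.TU.Ft5.2088) went from 147 ± 5.82 to 229 ± 5.87 CPM and from 67.4 ± 2.92 to 114 ± 3.22 CPM. RPL7A-1 (evm.TU.Ft2.4048), RPS19C (evm.TU.Ft8.5248) and RPL5 (evm.TU.Ft2.207) rose from 35.3 ± 1.13 to 61.2 ± 0.938 CPM, from 93.1 ± 1.88 to 154 ± 10.9 CPM and from 314 ± 4.31 to 463 ± 6.43 CPM. Large and small subunit genes had medians of 0.48 and 0.41. The median for the same genes from 2 to 4 h was -0.57, and from 0 to 8 h -0.09. In 262 of 277 genes the step from 4 to 8 h was higher than that from 2 to 4 h, by the test of the difference, against 27.8% of all genes. The steps last 4 and 2 h and share the 4 h libraries. The list was thus at its lowest at 4 h and near the control again at 8 h. Many of these genes are near-identical copies, so single members may share reads.

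Of the other genes of protein synthesis, ribosome biogenesis genes were higher in 50 of 83 and lower in 5 (median 0.28), and 72 and 0 by library size alone. The genes nop56 (evm.TU.Ft2.4008), BRIX1-2 (evm.TU.Ft6.295) and NOP5-2 (evm.TU.Ft8.4833), for factors of ribosomal RNA modification and subunit assembly, rose from 28.4 ± 0.226 to 56.9 ± 1.12 CPM, from 27.3 ± 0.419 to 47.7 ± 1.39 CPM and from 18.8 ± 1.54 to 32.7 ± 1.27 CPM. Translation factors and tRNA ligases had 90 of 186 higher and 35 lower (median 0.13, and 0.35 with 134 higher and 15 lower by library size alone), although SVR3 (evm.TU.Ft7.2823), a chloroplast elongation factor, fell from 482 ± 11 to 235 ± 2.56 CPM, tif34 (evm.TU.Ft7.5170), of an initiation factor, from 59.9 ± 1.03 to 34.6 ± 0.468 CPM and A2 (evm.TU.Ft3.3189), an elongation factor, from 26 ± 1.06 to 11.3 ± 0.207 CPM. Organelle ribosomal proteins had 45 of 84 higher and 8 lower (median 0.17), and 69 and 4 by library size alone. Mitochondrial members were higher in 22 of 28 and lower in 0, and plastid members higher in 23 of 57 and lower in 8. RPL1 (evm.TU.Ft8.2680), annotated as a plastid ribosomal protein, had 219.8, 227 and 210.3 CPM at 4 h and 11.1, 10.8 and 10.4 CPM at 8 h. The other gene of that name (evm.TU.Ft5.2559) went from 338 ± 5.38 to 233 ± 3.2 CPM. The mitochondrial mrps28 (evm.TU.Ft5.2734) rose from 25.3 ± 1.09 to 44.6 ± 0.93 CPM.

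Pentatricopeptide repeat genes, whose products edit and process RNA in mitochondria and chloroplasts, were higher in 198 of 435 and lower in 35 (median 0.46, and 0.67 with 295 higher and 13 lower by library size alone), with 80 rising and 5 falling at least 2-fold. evm.TU.Ft4.6236 rose from 38.5 ± 2.71 to 139 ± 5.55 CPM. ATC401 (evm.TU.Ft8.106) and evm.TU.Ft4.4880 fell from 1238 ± 41.5 to 462 ± 7.25 CPM and from 25.6 ± 0.725 to 6.71 ± 1.43 CPM. GRP23 (evm.TU.Ft5.1909), named after its values were seen, rose from 7.35 ± 1.04 to 16.6 ± 1.22 CPM. Oxidative phosphorylation genes of the nucleus had 39 of 76 higher and 13 lower (median 0.14, and 0.36 with 56 higher and 5 lower by library size alone). The alternative oxidase genes AOX1A, evm.TU.Ft2.678 and evm.TU.Ft4.3476, fell from 111 ± 2 to 41.3 ± 1.98 CPM and from 92.6 ± 1.75 to 66.1 ± 2.5 CPM, and SDH2-1 (evm.TU.Ft4.282), of succinate dehydrogenase, rose from 50.8 ± 0.367 to 73.8 ± 2.1 CPM. Spliceosome genes were close to the median of all genes (37 of 116 higher, 30 lower, median 0.04, and 0.25 with 80 higher and 11 lower by library size alone), with smd2 (evm.TU.Ft8.493) up by 0.78 and SR30 (evm.TU.Ft8.4797) and evm.TU.Ft4.1363 down by log2 changes of -0.55 and -0.53.

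Cell division genes, including cyclins and kinesins, were higher in 84 of 161 and lower in 22 (median 0.42), and 121 and 15 by library size alone. With TMM, 47 rose at least 2-fold against 2 that fell as much. Kinesins, the motors of spindle and phragmoplast, were higher in 40 of 69 and lower in 6, and cyclins of classes A, B and D higher in 29 of 57 and lower in 8. The members with the smallest p-values ran against the list. They were KIN7N (evm.TU.Ft4.6024), from 35.1 ± 1.21 to 20.1 ± 1.21 CPM, CDC48E (evm.TU.Ft3.834), a protein-unfolding ATPase, from 388 ± 3.75 to 278 ± 5.85 CPM, and KIN10 (evm.TU.Ft2.3983), which is the energy-sensing kinase SnRK1 and not a kinesin, from 89.3 ± 0.544 to 59.1 ± 2.14 CPM. Rising members were at low levels; named after their values were seen, CYCD3-3 (evm.TU.Ft2.4144) was at 3.81, 4 and 4.43 CPM at 4 h and 9.39, 9.59 and 8.94 CPM at 8 h and KIN14F (evm.TU.Ft4.6142) at 3.06, 2.72 and 2.19 CPM at 4 h and 10.4, 10.1 and 8.06 CPM at 8 h. Both were picked as rising members, so nothing is read from the separation of their libraries. Histone genes were higher in 45 of 68 and lower in 5 (median 0.38), and 54 and 2 by library size alone. Histone H1 (evm.TU.Ft3.4638) and H1.2 (evm.TU.Ft6.756), the linkers, rose from 100.2 ± 2.52 to 154 ± 5.77 CPM and from 411 ± 1.54 to 541 ± 21.3 CPM, and an H2A variant (evm.TU.Ft5.2828) fell from 108 ± 3.14 to 64.7 ± 2.14 CPM.

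Among growth-related lists, auxin genes were higher in 77 of 143 and lower in 38 (median 0.28, and 0.50 with 94 higher and 27 lower by library size alone), and genes of the Aux/IAA class, early auxin-response repressors, were higher in 24 of 33 and lower in 6. AUX22D (evm.TU.Ft5.1190) was at 10.6, 10.4 and 9.3 CPM at 4 h and 43.3, 40.7 and 46.3 CPM at 8 h (log2 2.11 (SE 0.076, edgeR adjusted p = 1.09e-24)). GH3.1 (evm.TU.Ft8.1200), which conjugates auxin to amino acids, and ILL6 (evm.TU.Ft8.4643), an amidohydrolase of such conjugates, fell from 31.6 ± 1.78 to 3.24 ± 0.517 CPM and from 28.7 ± 0.61 to 2.57 ± 0.352 CPM. Cell wall expansion genes had 88 of 210 higher and 56 lower (median 0.23), and 114 and 48 by library size alone. Expansins, which loosen walls, had 10 of 18 higher and 4 lower. XTHB (evm.TU.Ft1.2575), a xyloglucan endotransglucosylase, was at 118, 119.9 and 115 CPM at 4 h and 533, 561 and 566 CPM at 8 h (log2 2.24 (SE 0.0387, edgeR adjusted p = 3.00e-35)), and EXPA4 (evm.TU.Ft2.3071), named after its values were seen, rose from 36.3 ± 1.88 to 98.3 ± 1.94 CPM. PECS-2.1 (evm.TU.Ft1.2870), a pectinesterase, was at 191, 204 and 192 CPM at 4 h and 2.42, 2.65 and 3.29 CPM at 8 h (log2 -6.13 (SE 0.0694, edgeR adjusted p = 6.47e-41)), and CSLE6 (evm.TU.Ft3.495) fell from 186 ± 3.23 to 39.6 ± 2.64 CPM.

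Cuticle and wax genes were higher in 82 of 156 and lower in 32 (median 0.49), and 102 and 23 by library size alone. With TMM, 44 rose and 13 fell at least 2-fold. Lipid transfer proteins, which carry wax monomers outward, were higher in 17 of 24 and lower in 3. LTP1 (evm.TU.Ft2.4267) was at 937, 968 and 990.2 CPM at 4 h and 3182, 3496 and 3058 CPM at 8 h (log2 1.75 (SE 0.0379, edgeR adjusted p = 4.57e-32)), and evm.TU.Ft2.4607 rose from 275 ± 12.2 to 829 ± 26.3 CPM. The GDSL lipase CPRD49 (evm.TU.Ft2.6210) fell from 86.6 ± 6.49 to 4.75 ± 0.146 CPM. Guard cell markers had 6 of 11 higher and 1 lower (7 and 0 by library size alone), at a summed 73.7 to 80.3 CPM at 4 h and 96.3 to 110.1 CPM at 8 h. KAT1 (evm.TU.Ft3.1522), an inward potassium channel, and TMM (evm.TU.Ft7.1642), a receptor of stomatal patterning, rose from 24.7 ± 1.9 to 49.2 ± 2.02 CPM and from 1.32 ± 0.865 to 3.43 ± 0.516 CPM, and FAMA (evm.TU.Ft7.3139), a regulator of guard cell identity, fell from 7.6 ± 0.727 to 5.45 ± 0.881 CPM, a call lost by library size alone (FAMA log2 -0.265, edgeR adjusted p = 0.0633). The part of epidermal cell share in the cuticle result was not tested.

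Gibberellin genes had 11 of 31 higher and 9 lower (median 0.25, and 0.47 with 14 higher and 6 lower by library size alone), with KAO1 (evm.TU.Ft5.1055), of gibberellin synthesis, rising from 80.7 ± 6.72 to 141 ± 3.17 CPM and GASA1 (evm.TU.Ft8.4551) falling from 1313 ± 37.6 to 551 ± 33.6 CPM. Cytokinin genes had 21 of 55 lower and 15 higher (median -0.15, and 0.07 with 16 higher and 15 lower by library size alone). ARR4 (evm.TU.Ft6.858), a response regulator, and CKX7 (evm.TU.Ft5.3047), a cytokinin oxidase, fell from 15.4 ± 0.734 to 5.49 ± 0.0962 CPM and from 39 ± 1.37 to 13.1 ± 1.59 CPM, and ZOX1 (evm.TU.Ft8.602), which stores zeatin as a xyloside, rose from 23.7 ± 1.47 to 54.6 ± 2.15 CPM. Major latex-like proteins, small ligand-binding proteins, were higher in 14 of 23 and lower in 6 (median 0.86). MLP31 (evm.TU.Ft6.1121) and MLP34 (evm.TU.Ft6.1095) rose from 11.9 ± 2.19 to 91.5 ± 7.66 CPM and from 9.58 ± 0.244 to 38.2 ± 2.63 CPM, and MLP28 (evm.TU.Ft1.2505) from 766 ± 9.62 to 1655 ± 31.7 CPM.

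Aquaporins, the water channels, had 13 of 32 higher and 13 lower (median 0.06, and 0.28 with 16 higher and 9 lower by library size alone). TIP2-1 (evm.TU.Ft6.1842) was at 43.1, 42.9 and 45.9 CPM at 4 h and 139, 143 and 122 CPM at 8 h (log2 1.61 (SE 0.0515, edgeR adjusted p = 2.02e-26)), and TIP1-3 (evm.TU.Ft6.668), another tonoplast channel, at 551, 554 and 557 CPM at 4 h and 258, 249.9 and 245 CPM at 8 h (log2 -1.14 (SE 0.0317, edgeR adjusted p = 1.90e-28)). The aquaporin step from 4 to 8 h was higher than that from 2 to 4 h in 19 of 32 genes and lower in 3, against 27.8% and 29% of all genes, with medians of 0.06 and -0.58. Both steps share the 4 h libraries, and they last 4 and 2 h. Transporters of nitrate, ammonium, peptides and amino acids were lower in 51 of 97 and higher in 22 (median -0.46, and -0.24 with 32 higher and 41 lower by library size alone), and AAP6 (evm.TU.Ft3.5706) and AVT6A (evm.TU.Ft4.1108) fell from 175 ± 9.29 to 68.6 ± 1.77 CPM and from 210.1 ± 7.94 to 81.3 ± 2.86 CPM, against the rise of NPF6.2. Potassium, proton and anion transporters had 31 of 97 higher and 31 lower (median 0.02, and 0.24 with 46 higher and 21 lower by library size alone). PMA4 (evm.TU.Ft3.928), a plasma membrane proton pump, fell from 591 ± 4.35 to 192 ± 2.32 CPM, ALMT9 (evm.TU.Ft1.2209), a vacuolar malate and chloride channel of guard cells in Arabidopsis, from 33.2 ± 1.52 to 7.58 ± 0.291 CPM, and the chloroplast antiporter KEA3 (evm.TU.Ft6.1545) from 68.8 ± 1.15 to 15.6 ± 0.924 CPM.

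Autophagy genes were lower in 23 of 41 and higher in 4 (median -0.22, and 0.00 with 15 higher and 12 lower by library size alone). ATG11 (evm.TU.Ft3.957), a scaffold of selective autophagy, was at 119.7, 114 and 119 CPM at 4 h and 55.6, 58.5 and 60.4 CPM at 8 h (log2 -1.01 (SE 0.0451, edgeR adjusted p = 9.75e-22)), and ATG18H (evm.TU.Ft4.4885) and ATG18G (evm.TU.Ft7.2361) fell from 123 ± 1.86 to 68.8 ± 2.07 CPM and from 152 ± 5.5 to 88.2 ± 3.02 CPM. The autophagy step was lower from 4 to 8 h than from 2 to 4 h in 26 of 41 genes and higher in 0, against 29% and 27.8% of all genes. The steps last 4 and 2 h and share the 4 h libraries. Fatty acid breakdown genes were lower in 19 of 30 and higher in 7 (median -0.26, and -0.04 with 9 higher and 13 lower by library size alone), among them isocitrate lyase (evm.TU.Ft8.392), of the glyoxylate cycle, from 2599 ± 47 to 923 ± 42.8 CPM, PED1 (evm.TU.Ft6.2799), the peroxisomal thiolase, from 728 ± 11.5 to 457 ± 1.89 CPM, and AIM1 (evm.TU.Ft6.2008) from 109 ± 0.606 to 5.56 ± 0.333 CPM. Branched-chain amino acid degradation had 14 of 29 lower and 11 higher (median -0.07, and 0.14 with 14 higher and 13 lower by library size alone), and MCCB (evm.TU.Ft3.1137), ALDH6B2 (evm.TU.Ft6.426) and the dehydrogenase subunit gene evm.TU.Ft4.4651 fell from 413 ± 8.84 to 203 ± 2.4 CPM, from 434 ± 4.75 to 198 ± 3.57 CPM and from 389 ± 8.23 to 154 ± 2.14 CPM.

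Ubiquitin ligases were lower in 175 of 378 and higher in 76 (median -0.18, and 0.04 with 138 higher and 109 lower by library size alone). RHA2A (evm.TU.Ft1.461), in Arabidopsis a positive factor of ABA response, was at 76, 81.1 and 82.9 CPM at 4 h and 2.76, 2.2 and 2.32 CPM at 8 h (log2 -5.04 (SE 0.0914, edgeR adjusted p = 1.33e-34)). PUB24 (evm.TU.Ft2.6305), in Arabidopsis a negative factor of immune response, fell from 25.8 ± 2.61 to 0.377 ± 0.147 CPM, and PUB17 (evm.TU.Ft8.3573) from 60.7 ± 4.89 to 13.5 ± 0.403 CPM. Proteasome genes had 22 of 60 higher and 18 lower (median 0.03, and 0.25 with 44 higher and 3 lower by library size alone). PA200 (evm.TU.Ft1.2959), an activator cap, and PAD1 (evm.TU.Ft6.1650), a core subunit, rose from 4.29 ± 0.636 to 12.2 ± 0.892 CPM and from 53.3 ± 1.04 to 73.5 ± 2.6 CPM, and RPN2A (evm.TU.Ft7.3142) fell from 96.5 ± 2.61 to 64 ± 4.39 CPM.

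Heat shock proteins and co-chaperones, which fold and protect proteins, had 71 of 162 lower and 38 higher (median -0.08, and 0.14 with 73 higher and 44 lower by library size alone). HSP70 (evm.TU.Ft6.2970) and HSC80 (evm.TU.Ft8.2665) fell from 172 ± 3.54 to 75.4 ± 1.93 CPM and from 279 ± 11 to 135 ± 4.62 CPM, and ERDJ3B (evm.TU.Ft5.2333), of the endoplasmic reticulum, from 126 ± 6.37 to 51.1 ± 1.41 CPM. The chloroplast J-domain genes were split. ATJ11 (evm.TU.Ft4.6027) and DJC76 (evm.TU.Ft8.3821) fell from 582 ± 3 to 275 ± 9.39 CPM and from 114 ± 4.95 to 38.1 ± 3.59 CPM. Another DJC76 gene (evm.TU.Ft6.2478) was at 34.9, 37.6 and 35.5 CPM at 4 h and 172, 176 and 170.2 CPM at 8 h (log2 2.26 (SE 0.0669, edgeR adjusted p = 1.59e-27)). Small heat shock proteins, grouped after the values were seen, had 12 of 30 higher and 8 lower.

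Of the root markers 2 of 12 were higher and 2 lower (median 0.06, and 0.28 with 6 higher and 2 lower by library size alone): SHR (evm.TU.Ft1.1106) rose from 2.95 ± 0.458 to 5.1 ± 0.227 CPM, WER (evm.TU.Ft1.2358) from 0.3 ± 0.0621 to 1.18 ± 0.184 CPM, and a Casparian strip gene (evm.TU.Ft8.4391) fell from 0.689 ± 0.00908 to 0.222 ± 0.147 CPM, all at low levels. Of 142 genes of organelle origin 5 passed the filter, 2 higher and 1 lower (median -0.09, and 0.13 by library size alone). These were rpl22 (evm.TU.Ft8.4361), up by 0.68, rpl36 (evm.TU.Ft3.70), up by 0.37, and psbA (evm.TU.HiC_scaffold_5.400), with a log2 change of -1.22. The whole list took 0.0043% to 0.0070% of the counts. The 2753 called genes that carry no description were not analysed further here.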

How the data were processed

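Strandedness, genome build and annotation release are not given in the sources used here. Libraries were made with the VAHTS Universal V6 kit, per the labels' protocols, and the submitters' processing notes list HISAT2, HTSeq, DESeq2 and fastp without a version or a role. The authors deposited raw counts of reads, whole numbers for 26750 genes in 12 libraries (4 groups); symbols are given for 16389 genes and descriptions for 20157. FPKM values were also deposited by the authors and were checked to follow from the counts (largest relative difference 3.28e-09). No sequences were used.

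Counts were tested with edgeR 4.0.16 (limma 3.58.1, R 4.3.3) in 1 quasi-likelihood fit of all 12 libraries after TMM scaling and filterByExpr (minimum count 10, minimum total 15), with the contrast of 8 h minus 4 h and Benjamini-Hochberg adjustment over 22063 genes at 0.05. The difference between the steps of 4 to 8 h and 2 to 4 h was a contrast of the same fit, without scaling to their lengths of 4 and 2 h. Adjusted p-values of single genes are those of edgeR. On simulated data with 200 changed genes (21609 genes), 98.5%, 100% and 100% of genes changed by 0.5, 1 and 2 on the log2 scale were recovered, with 18 false among 217 calls; in the real data most genes were called, so these rates may not carry over.

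The 70 gene lists are text searches of symbols and descriptions, and some genes are in several lists. They, the members and the rule for named genes were chosen with earlier results of these data known. Classes within lists were grouped by description after the values were seen. The rule took the 12 largest rises and 12 largest falls among called genes of at least 10 CPM with groups that do not overlap and a described product, up to 3 (for 13 lists up to 6) members of each list with the smallest p, and the member with the highest CPM for each flavonol enzyme and clock gene name, 292 genes in all, of which 1 is not reported here. Other genes are said to be named after their values were seen. Alternatives were DESeq2 size factors, library size alone, DESeq2 (1.42.0), other filters, the 6 libraries only, the replicate number as a block, limma on log2 FPKM plus 1 or 0.1, omission of single libraries and a 2-fold minimum. Summaries used pandas 2.3.3 and numpy 2.4.6 under Python 3.11.15, and plots used matplotlib 3.10.9.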

Additional observations from a re-analysis of the deposited data

How the results depend on the processing

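Called genes numbered 13648 to 13808 when each 4 h or 8 h library was left out in turn (6933 to 7040 higher, 6714 to 6773 lower), 14339 with DESeq2 size factors, 14096 with DESeq2, 14640 with no filter, 11299 with the stricter filter and 14511 from the 6 libraries alone. A 2-fold minimum left 3881 genes, 1681 higher and 2200 lower, by its construction; 80 of the 292 named genes passed the main threshold below that fold. The scaling moved the split. Library size alone gave 11352 higher and 4711 lower. On log2(FPKM + 1) without a filter, limma called 11379 higher, and with the filter it called 4469 lower, or 4482 lower with FPKM + 0.1. The cause was not tested.

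Of the 292 named genes, GI (log2 0.079), ADO1 (0.194) and XCT (0.152) changed sign with library size alone and were called higher. In the main fit GI was called lower, and ADO1 and XCT were not called. On log2(FPKM + 0.1) the same 3 genes had the values 0.079, 0.194 and 0.152, and on log2(FPKM + 1) GI had 0.079, ADO1 0.190 and XCT 0.147; without the filter GI and ADO1 kept these values. By these 4 settings DREB3 and FAMA lost their calls and F3H-2, TIC and ADO1 gained one. GI was not called on log2 FPKM. None of the 292 reversed or changed its call with DESeq2, its size factors, no filter, the 6 libraries alone or any library left out, and 273 could be tested with the stricter filter, with the same result.

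The median of 23 of the 70 lists crossed that of all genes under at least 1 alternative, and 19 crossed 0 by library size alone. The organelle-encoded list went from -0.131 relative to all genes to 0.369 at the highest, and the seed marker list from 0.303 to -0.114.

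The replicate numbers did not pair the samples: deviations from the group means correlated by 0.0009, -0.0105 and 0.002 between libraries of the same number and by -0.0126 to 0.0120 otherwise. With the replicate block, 14397 genes were called, 7420 higher and 6977 lower, and no call of the 292 named genes changed. Groups of 3 libraries limit the precision of genes with few counts.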
